A study of Mus musculus with 4 samples.

Results

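Zfp genes are the mouse genes named for a zinc finger protein, and those described here are the 277 whose symbol in the authors' deposited comparison is Zfp followed by digits alone. They were chosen by that symbol from the 11536 genes of that comparison, which holds only genes above a minimum level given below. The count table holds 43430 genes. RNA was sequenced in bulk from sorted double-positive (DP) thymocytes, which carry both CD4 and CD8 and rearrange their T cell receptor alpha genes. The KO group was 2 C57BL/6 mice with the genotype Uqcrfs1fl/fl; CD4-Cre+, in which Cre driven by Cd4 regulatory sequences acts on floxed alleles of the gene for the Rieske iron-sulphur protein of respiratory chain complex III. The WT group was 2 C57BL/6 mice labelled WT for genotype, which the series description calls heterozygous littermates. Neither their Cre status nor the age of any mouse is given in the sources used here, and WT stands below for these littermates whatever their alleles. The 4 libraries came from separate mice. The comparison of KO with WT asks how expression of these genes differs in DP thymocytes in which the gene of a complex III subunit is deleted.

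Most Zfp proteins carry arrays of C2H2 fingers, small folds in which paired cysteines and paired histidines hold a zinc ion and each finger contacts a few bases of DNA. Many of the genes arose by tandem duplication and sit in clusters, and many of their proteins also carry a KRAB domain. KRAB domains bind the scaffold protein TRIM28, which brings in the histone methyltransferase SETDB1, HP1 proteins and the NuRD complex to silence retroelements and other targets. The symbol also covers unrelated proteins, among them RNA-binding proteins with other kinds of finger.

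Library totals over genes were 34080516 and 31728511 counts in KO replicates 1 and 2, and 32846323 and 30408863 in WT replicates 1 and 2. Uqcrfs1 itself stood at 15.6 and 18.6 CPM (a gene's counts scaled to a common library size, with TMM, edgeR's factor for library composition) in KO, and at 61.4 and 57.2 CPM in WT (log2 change -1.80, SE 0.09, adjusted p = 0.000178). The defining DP markers were high in every library: 10 such genes, Cd4, Cd8a and Rag1 among them, summed to 18472 and 18369 CPM in KO and to 17625 and 18832 CPM in WT. Of 8 markers of the earlier double-negative stage, the 6 that could be tested were all higher in KO and none passed the test, and the 8 summed to 129 and 167 CPM in KO against 98.1 and 101 CPM in WT. Myeloid markers summed to 23.2 and 50.1 CPM in KO and to 26.7 and 23.5 CPM in WT, B cell markers to between 874 and 924 CPM in the 4 libraries, stromal markers to between 144 and 157 CPM with 3 of 7 at 0, and erythroid markers to at most 0.221 CPM with 2 of 6 at 0. Reads outside annotated features made up 20.6% and 19.9% of uniquely aligned reads in KO, against 17.2% and 18.6% in WT. The part of the double-negative markers and of these reads in the results below was not tested. In bulk RNA, fewer cells of a type and less RNA per cell cannot be told apart.

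All 277 Zfp genes were expressed well enough to be tested, with 127 or more counts summed over the 4 libraries. The authors' comparison holds the 11536 genes with at least 1 CPM in at least 2 libraries, and 271 of the Zfp genes had that level in all 4. None passed through the KO libraries alone or the WT libraries alone. Of 373 annotated genes of this name pattern in the count table, 291 are in the authors' comparison, 16 of them under another symbol there. Of the 82 that are not, 30 had no count in any library, and the highest summed to 111 counts. In DP thymocytes the Zfp genes were mostly of moderate level, with a median of 22.9 CPM (range 0.984 to 499 CPM). The median over the 13281 genes tested was 26.6 CPM, in a set with a lower floor (lowest mean 0.168 CPM). Per kilobase of the deposited gene length the median was 3.78 CPM for the Zfp genes and 4.39 CPM for all genes tested. The level per kilobase was 93.4 CPM for Zfp36, the RNA-binding protein tristetraprolin, 41.8 for Zfp410, 38.1 for Zfp598 and 36.3 for Zfp445.

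The shared feature of the proteins was counted directly. The pattern of a C2H2 finger (cysteine, 2 to 4 residues, cysteine, 12 residues, histidine, 3 to 5 residues, histidine) was searched in the longest annotated coding sequence that starts with ATG, which 275 of the genes had and Zfp125 and Zfp783 had not. The median of the 275 is 11 such patterns, and Zfp142 encodes the most, 37. In 8 of the 275 no pattern was found, Zfp36 among them, whose fingers are of the CCCH type. Finger arrays are similar between genes, and some annotated genes also overlap each other. For 36 of the 277, at least 20% of the 50-base words of their transcripts occur, on either strand, in a transcript of another gene. Such words include those of genes that overlap on the opposite strand, as for Zfp784 with Zfp865 (94.7%). Sharing by similarity and sharing by overlap were not separated. For these 36 genes, the authors' counting may have dropped or shared reads, so their values are less certain.

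Promoter windows from RefSeq (GRCm38.p6, from 250 bases before to 50 bases after an annotated start) were matched by symbol for 231 of the 277 genes, giving 281 windows. They are shown because motifs there are a feature that the choice by name did not use. The 7 letters CCGGAAG, a form of the ETS core, occurred on either strand in 22.4% of the Zfp windows and in 11.9% of 20150 windows of protein-coding genes. CCAAT occurred in 46.3% against 37.8% and TATAAA in 6.76% against 12.1%. The median window held 16 CG dinucleotides for Zfp genes and 14 for coding genes. The coding windows came from 16522 genes whatever their level in DP thymocytes, while the Zfp genes all passed the level of the authors' comparison. These shares are therefore not matched for expression. The matches are descriptions of letters and not evidence of binding. The windows of 3 genes whose values follow are printed 5′ to 3′ on the gene's strand, with CCAAT or CCGGAAG, on either strand, in capitals. They are Zfp26, the Zfp gene with the smallest p-value, Zfp451, whose window holds both motifs, and Zfp661, which had the larger of the 2 differences toward lower values below and no match in this window. A second annotated start of Zfp661 (chr2:127584628-127584927, minus strand) has a window with 1 CCAAT match and is not printed.
Zfp26, chr9:20460111-20460410, minus strand: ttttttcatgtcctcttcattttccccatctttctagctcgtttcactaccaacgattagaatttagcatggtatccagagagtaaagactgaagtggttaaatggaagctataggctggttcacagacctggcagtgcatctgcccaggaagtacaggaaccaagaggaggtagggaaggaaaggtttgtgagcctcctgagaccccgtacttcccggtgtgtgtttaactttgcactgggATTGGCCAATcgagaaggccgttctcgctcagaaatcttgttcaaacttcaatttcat
Zfp451, chr1:33814546-33814845, minus strand: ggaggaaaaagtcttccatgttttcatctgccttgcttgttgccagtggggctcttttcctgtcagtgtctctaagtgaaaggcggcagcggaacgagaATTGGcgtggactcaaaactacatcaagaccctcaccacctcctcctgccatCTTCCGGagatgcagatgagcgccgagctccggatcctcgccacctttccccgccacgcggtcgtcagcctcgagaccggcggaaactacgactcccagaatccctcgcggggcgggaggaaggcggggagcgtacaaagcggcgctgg
Zfp661, chr2:127587045-127587344, minus strand: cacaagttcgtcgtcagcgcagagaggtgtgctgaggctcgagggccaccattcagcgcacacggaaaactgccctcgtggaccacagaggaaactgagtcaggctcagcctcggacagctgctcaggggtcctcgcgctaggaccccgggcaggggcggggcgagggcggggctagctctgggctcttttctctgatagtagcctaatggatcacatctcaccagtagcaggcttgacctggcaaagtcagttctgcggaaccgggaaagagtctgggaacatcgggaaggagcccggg
In the Zfp26 window 2 CCAAT matches, 1 on each strand, lie end to end, and the window holds 7 CG dinucleotides. The Zfp451 window holds 24 and the Zfp661 window 18.

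No Zfp gene passed the test between KO and WT. At an adjusted p under 0.05 (edgeR's quasi-likelihood F test, Benjamini-Hochberg adjustment over all 13281 genes), 0 of 277 were called, against 0.0226% of all genes tested, and the smallest adjusted p was 0.445 (Zfp26). DESeq2 also called 0 of them (0.105% of its genes), and so did edgeR's likelihood ratio test (0.760%). At an unadjusted p under 0.05, 18 of the 277 (6.50%) were counted against 8.40% of all genes tested. By direction, 16 (5.78%) were higher in KO against a background of 4.40%, and 2 (0.722%) were lower against 4.01%. With 2 mice in each group, an exact permutation test of a single gene cannot go below p = 0.33.

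The differences were small in size. Log2 changes ran from -0.50 for Zfp456 to 0.56 for Zfp931, with the 5th and 95th percentiles at -0.20 and 0.24. For all genes tested these percentiles were -0.33 and 0.47, but that set reaches lower levels (lowest mean 0.168 CPM against 0.984 CPM). The ranges were not matched for level. Only these 2 Zfp genes were past 0.5 in size, 25 were past 0.25, and 156 were within 0.1 of 0. The standard error was 0.09 at the median, for the Zfp genes and for all genes alike.

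Within that narrow range the values lay toward higher in KO. Of the 277, 167 (60.3%) had a log2 change above 0 and 110 below, against 49.9% above 0 among all genes tested. The median log2 change was 0.029, against -0.000 over all genes tested. Both KO libraries stood above both WT libraries for 81 Zfp genes (29.2%, background 20.4%) and below both for 36 (13%, background 20.1%), so the groups did not overlap for 117 (42.2%, background 40.5%) and overlapped for 160. The share above 0 and the median were smaller when WT replicate 1 was left out, as the next comparison gives. The shares of groups apart were not compared in that way.

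**Figure D1:**
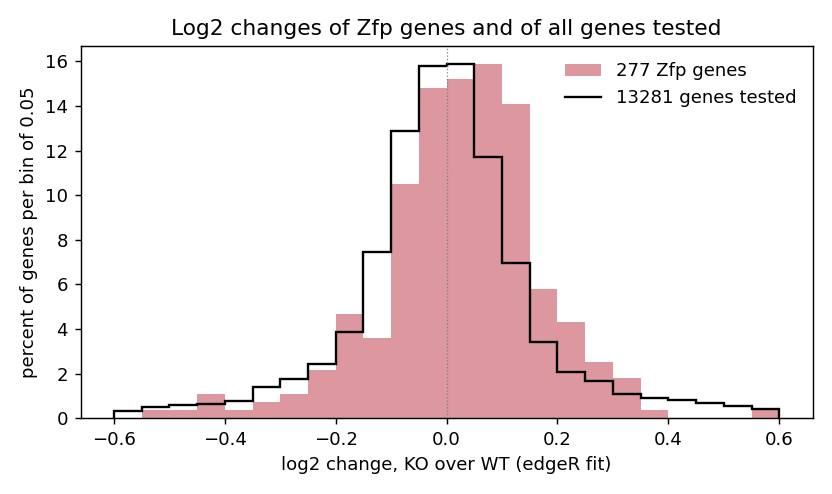
Histogram of log2 changes, KO over WT (x axis), as the percent of genes per bin of 0.05 (y axis), for the 277 Zfp genes (filled) and the 13281 genes tested (line); genes past 0.6 in size are not drawn. The Zfp genes lie in a narrower range, though the genes tested reach lower levels, and have a median of 0.029 against -0.000.

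WT replicate 1 held the lowest of the 4 values for 129 Zfp genes (46.6%), against 30.6% of all genes tested. KO replicate 1 was lowest for 43, KO replicate 2 for 54 and WT replicate 2 for 51. Compared library by library, the median log2 ratio of the Zfp genes was 0.056 for KO replicate 1 over WT replicate 1 and 0.039 for KO replicate 2 over WT replicate 1. Against WT replicate 2 the same medians were 0.015 and 0.010. The median between the WT libraries themselves, replicate 1 over replicate 2, was -0.041, larger in size than either of those, and 0.011 between the KO libraries. Over all genes tested each of these 6 medians lay between -0.002 and 0.004. Without WT replicate 1, the share of Zfp genes higher in KO was 51.6% and the median log2 change 0.012, and without WT replicate 2 they were 62.8% and 0.049. The median of KO over WT in the fit, 0.029, was smaller in size than the median between the WT mice. The 2 are unlike measures, as the fit draws on 2 libraries a group and the other compares single libraries.

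**Figure D2:**
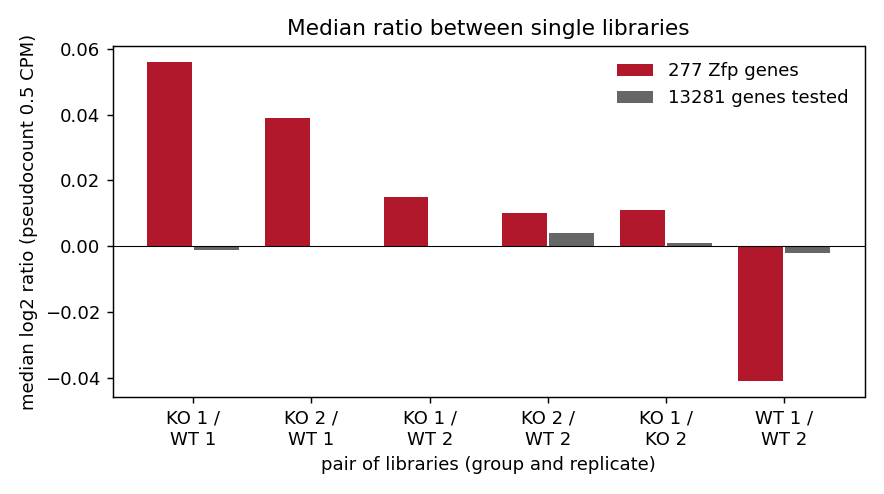
Median log2 ratio (y axis, pseudocount 0.5 CPM) between pairs of single libraries (x axis), for the 277 Zfp genes and the 13281 genes tested. Ratios over WT replicate 1 are 0.056 and 0.039, those over WT replicate 2 are 0.015 and 0.010, and WT replicate 1 over WT replicate 2 is -0.041.

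The named genes with the largest differences were taken from those at an unadjusted p under 0.05 whose groups did not overlap and whose mean was at least 2 CPM, up to 12 in each direction by size of log2 change. That gave 12 of 16 such genes higher in KO, and both of those lower. The other 4 higher genes, Zfp451, Zfp866, Zfp397 and Zfp592, had log2 changes of 0.11 to 0.13. Zfp26 (ENSMUSG00000063108, chr9:20432972-20460162 of mm10, minus strand) encodes 22 finger patterns. It had 84.6 and 86.9 CPM in KO and 67.7 and 76.0 CPM in WT (85.8 ± 1.6 against 71.9 ± 5.91, SD, n = 2 each; log2 change 0.26, SE 0.07, adjusted p = 0.445). Both KO mice were above both WT mice, and WT replicate 1 was the lowest. It shares 18.5% of its transcript words with other genes and overlaps the annotated genes Gm26733 and Gm48738.

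Zfp607 on chromosome 7 had 25.3 and 24.9 CPM in KO and 19.7 and 20.9 CPM in WT (25.1 ± 0.296 against 20.3 ± 0.851, SD, n = 2 each; log2 change 0.30, SE 0.08, adjusted p = 0.449). Zfp710, also on chromosome 7, had 45.2 and 44.3 CPM in KO and 36.8 and 38.9 CPM in WT (44.7 ± 0.653 against 37.8 ± 1.48; log2 change 0.24, SE 0.06, adjusted p = 0.450). In both genes the groups lay apart by more than the spread within either, and leaving out any 1 library kept the log2 change between 0.26 and 0.34 for Zfp607 and between 0.20 and 0.28 for Zfp710. Neither passed the test over all genes.

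Zfp871 on chromosome 17 had 151 and 148 CPM in KO and 113 and 135 CPM in WT (150 ± 2.42 against 124 ± 15.4; log2 change 0.27, SE 0.08, adjusted p = 0.497). Zfp398 on chromosome 6 had 41.3 and 41.5 CPM in KO and 31.0 and 37.1 CPM in WT (log2 change 0.28, SE 0.09, adjusted p = 0.511). Zfp169 on chromosome 13 had 96.0 and 89.1 CPM in KO and 71.2 and 86.4 CPM in WT (log2 change 0.23, SE 0.09, adjusted p = 0.551). In each of these genes WT replicate 2 stood nearer to the KO mice than to WT replicate 1, and without WT replicate 1 the log2 change was 0.15 for Zfp871, 0.15 for Zfp398 and 0.10 for Zfp169. Without WT replicate 2, with the lone WT library assumed to vary like the KO libraries, 10 Zfp genes passed the adjusted threshold (background 2.65%), all higher in KO. Zfp871, Zfp398, Zfp169 and Zfp26 were among them, at adjusted p = 0.00678, 0.0224, 0.0178 and 0.0181. No Zfp gene was called when any of the other 3 libraries was left out. With no filter on low counts 5 Zfp genes were called (background 0.911%), of which Zfp871, Zfp169, Zfp398 and Zfp26 were higher in KO and Zfp219 was lower.

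The largest log2 change of all belonged to a weakly expressed gene. Zfp931 on chromosome 2 had 3.61 and 4.22 CPM in KO and 2.53 and 2.80 CPM in WT, from 123 and 134 counts in KO and 83 and 85 in WT (log2 change 0.56, SE 0.21, adjusted p = 0.547). The groups did not overlap, but 52.6% of its transcript words also occur in other genes. Zfp229 on chromosome 17 had 8.57 and 9.49 CPM in KO and 6.88 and 7.57 CPM in WT (log2 change 0.32, SE 0.13, adjusted p = 0.571). The remaining named genes with higher values in KO were Zfp189 (log2 change 0.23), Zfp281 (0.17), Zfp652 (0.16) and Zfp445 (0.15), with adjusted p between 0.547 and 0.579.

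Lower values in KO of this kind were found for Zfp661 and Zfp219. Zfp661 on chromosome 2 had 3.43 and 4.03 CPM in KO and 4.63 and 5.47 CPM in WT, from 117 and 128 counts in KO and 152 and 166 in WT (log2 change -0.44, SE 0.19, adjusted p = 0.581). Zfp219 on chromosome 14, known as a partner of the transcription factor SOX9 in cartilage, had 177 and 158 CPM in KO and 204 and 179 CPM in WT (log2 change -0.20, SE 0.08, adjusted p = 0.553). Its groups nearly touched at 177 CPM in KO and 179 CPM in WT, and it overlaps the annotated genes Arhgef40, Gm49086 and Tmem253.

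**Figure D3:**
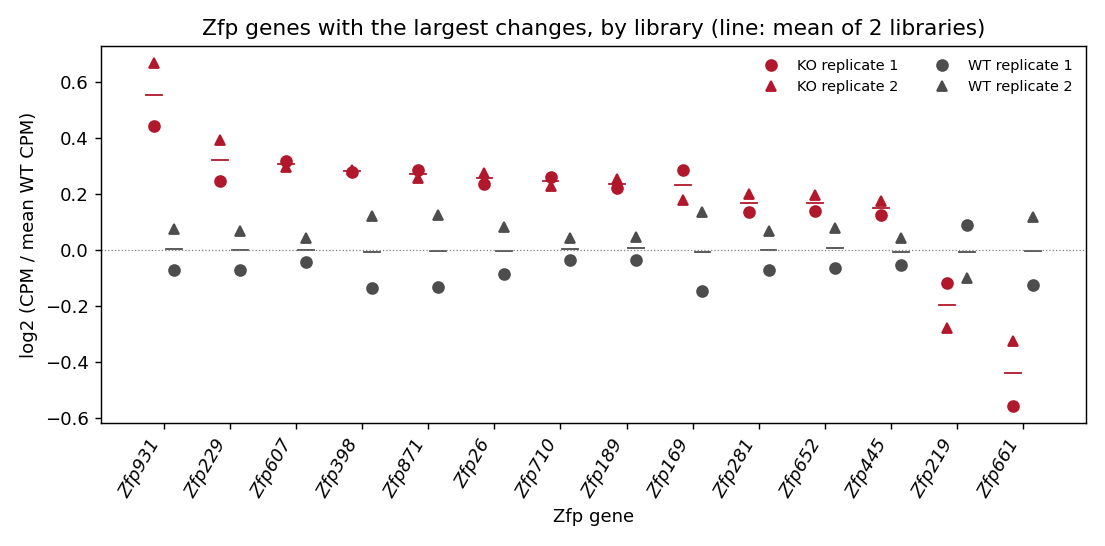
CPM of each library over the mean of the WT libraries, on a log2 scale (y axis), for the 14 Zfp genes (x axis) named for their differences; circles are replicate 1, triangles replicate 2 and lines the mean of a group. KO points lie above WT points in 12 genes and below them in Zfp661 and Zfp219, and none passed the adjusted threshold.

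Zfp genes with known roles in lymphocytes or blood formation had small differences. Of 11 on the list, 7 were tested, 5 higher in KO and 2 lower, with a median log2 change of 0.05, and none passed the test. Zfp36, which destabilises cytokine mRNAs, had 162 and 175 CPM in KO and 157 and 175 CPM in WT (log2 change 0.02, SE 0.06, adjusted p = 0.940). Zfp335, which mouse T cells need to build the naive peripheral pool, had 162 and 167 CPM in KO and 161 and 156 CPM in WT (0.05, SE 0.05, adjusted p = 0.778). Zfp91, a ubiquitin ligase of the non-canonical NF-kB pathway, had 251 and 242 CPM in KO and 235 and 240 CPM in WT (0.05, SE 0.05, adjusted p = 0.793). The groups overlapped for Zfp36, and for Zfp335 and Zfp91 the lower KO library lay just above the higher WT library. Zfp608, a repressor of the recombinase genes Rag1 and Rag2 in the mouse thymus, was weakly expressed, with 53 counts in each KO library and 47 and 60 in the WT libraries (-0.08, SE 0.29). Zfp318, which controls the splicing of IgD transcripts in B cells, had 32.9 and 31.9 CPM in KO and 28.1 and 33.7 CPM in WT (0.07, SE 0.09), so its WT mice enclosed its KO mice. Zfp281 was described above as a difference (61.4 and 64.1 CPM in KO, 53.2 and 58.6 CPM in WT), and Zfp831 had 8.74 and 10.5 CPM in KO and 10.3 and 10.5 CPM in WT (-0.11, SE 0.13). Zfp683, Zfp366, Zfp521 and Zfp423 were too low to be tested.

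Zfp genes of RNA, ribosome and spindle function gave 7 higher and 2 lower of 9 tested, none called, with a median of 0.04. Zfp207, a spindle assembly factor and the most abundant Zfp transcript by CPM, had 507 and 504 CPM in KO and 484 and 501 CPM in WT (log2 change 0.04, SE 0.05, adjusted p = 0.839). Zfp598, the ubiquitin ligase that senses collided ribosomes, had 123 CPM in each KO library and 128 and 126 CPM in WT (-0.04, SE 0.05, adjusted p = 0.819). The groups did not overlap in either gene, but the differences were under the standard error. Zfp593, a factor of large ribosomal subunit assembly as known from its yeast relative, had 8.07 and 7.94 CPM in KO and 9.44 and 8.30 CPM in WT (-0.15, SE 0.13), with 64.5% of its words shared. Zfp326, which couples splicing to RNA polymerase II elongation, had 41.5 and 38.7 CPM in KO and 37.6 and 37.1 CPM in WT (0.10, SE 0.07). Zfp106 (0.06), Zfp830 (0.08), Zfp346 (0.04), Zfp622 (0.02) and Zfp36, described above and counted in both lists, were the other tested genes. Zfp638, the remaining gene of the list, was not found under that symbol and so was not tested, whatever its level.

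Broadly acting transcription and chromatin factors made the largest list, 20 genes of which 17 were tested, 11 higher and 6 lower, with a median of 0.09 (0.03 to 0.08 when 1 library at a time was left out). None passed the adjusted test. At an unadjusted p under 0.05 there were 3 higher and 1 lower of the 17, against 4.40% higher and 4.01% lower of all genes tested. Zfp451, a SUMO ligase, had 116 CPM in each KO library and 107 and 105 CPM in WT (log2 change 0.13, SE 0.05, adjusted p = 0.551). Zfp592, a subunit of a complex around the chromatin reader ZMYND8, had 208 and 209 CPM in KO and 193 and 195 CPM in WT (0.11, SE 0.05, adjusted p = 0.589). The replicates of both genes were nearly equal within each group, so the groups lay apart, with KO over WT at 1.09-fold for Zfp451 and 1.08-fold for Zfp592. Zfp148, which binds GC-rich promoters, had 175 and 180 CPM in KO and 163 and 171 CPM in WT (0.09, SE 0.05). Zfp143, a factor of promoters and chromatin loops, had 61.6 and 60.9 CPM in KO and 56.9 and 58.2 CPM in WT (0.09, SE 0.06). Zfp746 (PARIS), a repressor of the mitochondrial biogenesis regulator PGC-1alpha, had 73.4 and 76.3 CPM in KO and 75.9 and 71.8 CPM in WT (0.02, SE 0.06), and its groups overlapped. Zfp410, the activator of the NuRD gene Chd4, had 109 and 116 CPM in KO and 113 CPM in each WT library (-0.01, SE 0.05). Zfp644, Zfp687, Zfp609, Zfp263 and Zfp217 lay between 0.02 and 0.13. Zfp384, Zfp64, Zfp131 and Zfp516 lay between -0.20 and -0.01, with Zfp516 measured from only 76 to 105 counts a library.

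Repressors of retroelements and imprinted genes gave 3 higher and 1 lower of 4 tested, with none called. Zfp445, which helps to maintain genomic imprints, had 111 and 115 CPM in KO and 98.1 and 105 CPM in WT (log2 change 0.15, SE 0.06, adjusted p = 0.547). Zfp568, a repressor of a placental Igf2 transcript, had 19.6 and 20.4 CPM in KO and 16.0 and 18.7 CPM in WT (0.21, SE 0.10, adjusted p = 0.618). Both KO mice were above both WT mice in each. Zfp809, which silences retroviruses through their primer binding site, had 19.5 and 20.1 CPM in KO and 19.2 and 19.3 CPM in WT (0.04, SE 0.08). Zfp932, a repressor of endogenous retroviruses, had 20.8 and 19.0 CPM in KO and 21.1 CPM in each WT library (-0.08, SE 0.09), with 55.5% of its words shared. Zfp57, Zfp42 and Zfp708 were not tested.

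The co-repressors through which KRAB proteins act were divided about evenly. Of 34 listed symbols 30 were tested, 14 higher and 16 lower in KO, with a median log2 change of -0.00 and 0 called. Fam208a, Tasor and Resf1 were not found under those symbols, so they are missing here whatever their level. Atf7ip2 had 0 counts in every library. Trim28 had 528 and 552 CPM in KO and 577 and 519 CPM in WT (log2 change -0.02, SE 0.06, adjusted p = 0.940), and the WT mice enclosed the KO mice. Setdb1 had 159 and 157 CPM in KO and 150 and 149 CPM in WT (0.08, SE 0.05), and its cofactor Atf7ip had 312 and 311 CPM in KO and 274 and 303 CPM in WT (0.11, SE 0.06). In both the groups did not overlap. Mphosph8, of the HUSH silencing complex, was the only 1 of the 30 at an unadjusted p under 0.05, against 8.40% of all genes tested. It had 53.7 and 52.4 CPM in KO and 47.9 and 48.5 CPM in WT (0.14, SE 0.06, adjusted p = 0.571).

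The most abundant Zfp transcripts by CPM after Zfp207 were Zfp740, Zfp106, Zfp91, Zfp292 and Zfp646. Zfp740 had 359 CPM in each KO library and 346 and 352 CPM in WT (log2 change 0.04, SE 0.05). Zfp106 had 248 and 258 CPM in KO and 237 and 246 CPM in WT (0.06, SE 0.05). Zfp292 had 233 and 227 CPM in KO and 196 and 222 CPM in WT (0.14, SE 0.06, adjusted p = 0.610), and without WT replicate 2 it was called (0.23, adjusted p = 0.0295). Zfp646 had 220 and 217 CPM in KO and 213 and 225 CPM in WT (-0.00, SE 0.05), with overlapping groups.

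Spread within groups was small for most Zfp genes and larger in WT. The median absolute log2 difference between the 2 libraries of a group was 0.067 in KO and 0.087 in WT, against 0.077 in KO and 0.106 in WT for all genes tested (pseudocount 0.5 CPM). At matched level, between 7.53 and 50.7 CPM, it was 0.058 in KO and 0.085 in WT for 139 Zfp genes, and 0.078 in KO and 0.099 in WT for 4311 genes. The 6 widest differences between the KO mice belonged to weakly expressed genes, 4 of them in 1 cluster on chromosome 13. Zfp457 had 45 and 14 counts in KO replicates 1 and 2 and 27 and 41 in WT, Zfp458 had 121 and 66 in KO and 102 and 88 in WT, and Zfp459 had 122 and 70 in KO and 87 and 75 in WT. KO replicate 1 was the higher KO library in these 3, while their neighbour Zfp455 went the other way with 47 and 71 counts in KO and 75 and 59 in WT. The other two were Zfp938 on chromosome 10, with 273 and 160 counts in KO and 206 and 182 in WT, and Zfp185 on the X chromosome, with 72 and 41 in KO and 77 and 48 in WT. The groups overlapped in all 6. Between the WT mice the widest were Zfp467 (156 and 233 counts) and Zfp11 (84 and 126), both lower in WT replicate 1, and Zfp125 (104 and 59), lower in WT replicate 2.

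Zfp genes were concentrated on a few chromosomes. Chromosome 7 held 76 of the 277 (27.4%, against 7.47% of all genes tested), chromosome 17 held 34 (12.3% against 5.32%) and chromosome 13 held 26 (9.39% against 3.64%). Detection also varied by chromosome: of the annotated genes of this name pattern, the authors' comparison holds 79 of 91 on chromosome 7 and 37 of 41 on chromosome 17, but 13 of 25 on chromosome 2 and 11 of 30 on chromosome 4. The median log2 change of each of these chromosomes lay close to 0. On chromosome 7, 47 were higher in KO and 29 lower (median 0.03), on chromosome 17, 22 and 12 (0.05), and on chromosome 13, 13 and 13 (-0.00). Without WT replicate 1 the medians were -0.00 on chromosome 7 and 0.01 on chromosome 17. On chromosome 6, 7 were higher and 8 lower (-0.02), and on chromosome 9, 11 and 5 (0.06). Among all genes tested, the share above 0 was 43.3% on chromosome 7, 48.7% on 17, 50.6% on 13, 48.6% on 6 and 51% on 9. Their medians lay between -0.02 (chromosome 7) and 0.00.

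**Figure D4:**
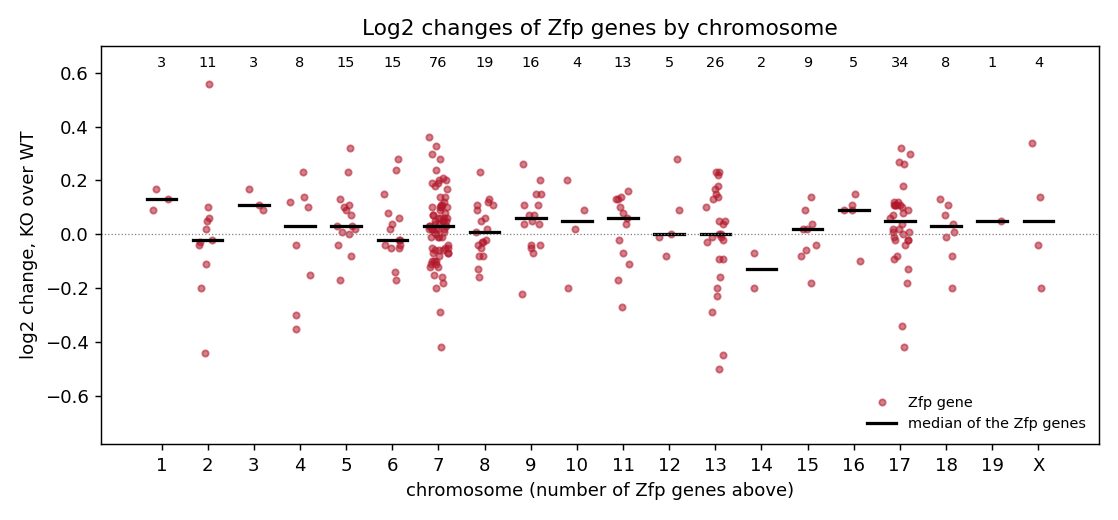
Log2 change, KO over WT (y axis), of each Zfp gene by chromosome (x axis), with the number of Zfp genes above each column and black lines at the medians. Chromosomes 7, 17 and 13 hold 76, 34 and 26 genes, and the points of each spread on both sides of 0.

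Runs of at least 3 Zfp genes with neighbouring starts within 1000000 bases formed 24 clusters, which held 169 of the 277 (61%). Genes in clusters had lower levels, with a median of 19.1 CPM against 39.5 CPM for the 108 outside. Their log2 changes were close to those outside, with 61.5% higher in KO and a median of 0.040 in clusters, against 58.3% and 0.019 outside. The groups were apart with KO higher for 45 genes in clusters (26.6%) and 36 outside (33.3%), against 20.4% of all genes tested. They were apart with KO lower for 20 in clusters (11.8%) and 16 outside (14.8%), against 20.1%.

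Most large clusters held values of both signs. The largest, on chromosome 17 from 21008941 to 23564226 of mm10, held 18 genes, 13 higher and 5 lower, from -0.34 for Zfp52 to 0.32 for Zfp229. The chromosome 13 cluster from 67038594 to 67827002 held 15, with 9 higher and 6 lower, from -0.50 for Zfp456 to 0.23 for Zfp712. Zfp456 had 2.41 and 1.92 CPM in KO and 2.99 and 3.16 CPM in WT (SE 0.23, adjusted p = 0.613), and 65.3% of its words are shared. The chromosome 7 cluster from 29768552 to 30169727 held 14, with 10 higher and 4 lower, from -0.42 for Zfp30 (2.02 and 2.27 CPM in KO, 2.92 and 2.83 CPM in WT) to 0.21 for Zfp568. A second chromosome 17 cluster, from 32771236 to 33631779, held 11, with 7 higher and 4 lower and a median of 0.11 (0.05 to 0.10 when 1 library at a time was left out), from -0.42 for Zfp811 to 0.27 for Zfp871. Other chromosome 7 clusters held 12 genes (24081924 to 25227507; -0.15 for Zfp94 to 0.19 for Zfp428) and 10 genes (6131489 to 7209998; -0.29 for Zfp78 to 0.33 for Zfp418). No gene in any of the 24 was called.

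Values of a single sign were seen in 4 of the 24 clusters, 3 of them of only 3 genes. On chromosome 9, from 19641224 to 20595194, all 6 genes were higher in KO, with a median of 0.09 and a range from 0.04 for Zfp426 to 0.26 for Zfp26. All 6 were also lower in WT replicate 1 than in WT replicate 2, and leaving out WT replicate 1 gave a median of 0.02, leaving out WT replicate 2 one of 0.21. Zfp846 in this cluster had 40.2 and 39.1 CPM in KO and 30.5 and 38.5 CPM in WT (log2 change 0.20, SE 0.10, adjusted p = 0.633). All 3 genes were higher in a cluster on chromosome 18 (Zfp35 at 0.04 to Zfp397 at 0.13) and in another on chromosome 5 (Zfp157 at 0.03 to Zfp113 at 0.09). All 3 were lower in the chromosome 13 cluster from 62129916 to 62520544, where Zfp808 was at -0.01 and Zfp934 at -0.45. The value of Zfp934 came from 40 and 22 counts in KO and 42 and 39 in WT.

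The share of genes with higher values in KO was largest for long genes, among Zfp genes and among all genes. The Zfp genes were divided into 3 bins of about equal number by the length deposited with the counts, with edges at 4014 and 8859 bases. From short to long, 55.9%, 54.3% and 70.7% of the Zfp genes were higher in KO, and in the same bins 41.9%, 48.9% and 60.4% of all genes tested. In the longest bin both KO libraries were above both WT libraries for 34 of 92 Zfp genes (37%) and below both for 8 (8.7%). Among all 4348 genes tested of that length these shares were 27% and 14.1%. The median log2 change of the longest Zfp genes was 0.058, against 0.025 for all genes of that length. Without WT replicate 1 the medians were 0.017 for those Zfp genes and 0.009 for all genes. The sources used here do not say what the deposited length covers.

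**Figure D5:**
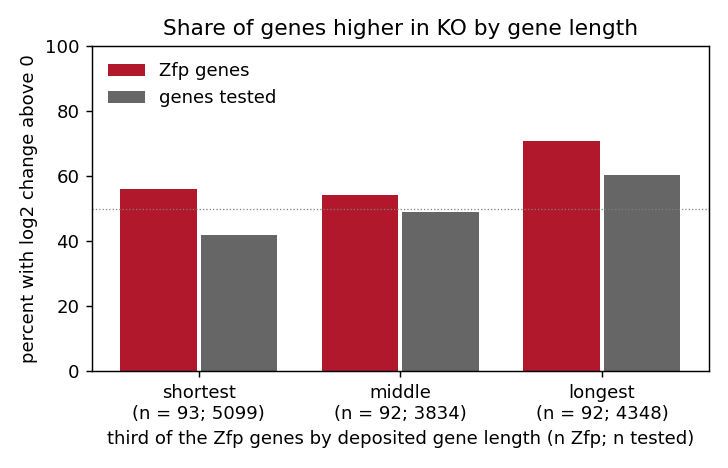
Percent of genes with a log2 change above 0 (y axis) in 3 bins of deposited gene length set on the Zfp genes (x axis), for Zfp genes and for all genes tested. Both shares are highest in the longest bin, at 70.7% for Zfp genes and 60.4% for all genes.

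By level, 46.2% of the weakest Zfp genes (under 11.4 CPM) were higher in KO, against 67.4% between 11.4 and 39.7 CPM and 67.4% above. Over all genes tested the same bins gave 53.1%, 44.4% and 50.1%. By finger number, the median log2 change was -0.04 for the 8 searched genes with no C2H2 pattern, 0.02 for 53 with 1 to 6, 0.04 for 140 with 7 to 13 and 0.05 for 74 with 14 or more. Without WT replicate 1 the last 3 medians were 0.01, 0.02 and 0.01. Among genes with under 5% of their words shared, 63.0% of 192 were higher in KO, and among the other 85, 54.1%.

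Other zinc finger families also lay mostly toward higher values in KO, and no difference between families was tested. Among all genes tested, 49.9% had a log2 change above 0. Of 33 Zbtb genes, whose fingers come with a BTB domain, 23 (69.7%) were higher in KO (median log2 change 0.046). Of 18 Zscan and Zkscan genes, which carry a SCAN domain, 14 (77.8%) were higher (0.035), and of 17 genes named Zfp with digits and letters, 11 (64.7%) were (0.034). At an unadjusted p under 0.05 there were 2, 4 and 3 genes of these families in the same order, all higher in KO. Over all genes tested, 4.40% were higher at that threshold and 4.01% lower. None of the family genes passed the adjusted test, and their values without WT replicate 1 were not taken.

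In the authors' deposited table, 0 of the 277 were marked as higher or lower (0.399% of its genes are marked, 27 higher and 19 lower). By the p-values of the authors' deposited table, 14 Zfp genes were under 0.05, 12 higher and 2 lower, against 7.98% of all its genes. Its smallest adjusted p among them was 0.0825, for Zfp871. The sign of the log2 change in the authors' deposited table matched that of the quasi-likelihood fit for 276 of 277.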

How the data were processed

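Bulk RNA-seq of sorted DP thymocytes gave 4 libraries, 2 KO and 2 WT, with groups taken from the genotype labels. The authors used Trimmomatic 0.33 for trimming, STAR 2.5.2 for alignment to mm10, HTSeq for counting and edgeR for the comparison, per the submitters' processing notes. The sources used here do not give the counting mode, strandedness or annotation version, so overlapping, antisense and near-identical genes are uncertain. Raw counts for each Ensembl gene were deposited, with the same values in the per-library files and the series table. The authors' deposited comparison holds CPM, log2 fold changes and log2 mean CPM, a likelihood ratio score, p-values and adjusted p-values. Its CPM equal counts scaled by the library total. Summary lines of HTSeq entered neither library sizes nor tests. Reads outside features held 17.2% to 20.6% of uniquely aligned reads, and the line for alignments that were not unique 23.2% to 24.7% of all that HTSeq tallied as aligned.

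The Zfp genes, the lists and the rule for named genes were chosen with earlier results of these data known. The rule for named genes takes the measured genes of 4 role lists, up to 12 genes in each direction at an unadjusted p under 0.05 with groups apart and a mean of at least 2 CPM, the 6 highest by CPM, and the extremes of each cluster described. The widest replicate differences, the promoters and genes called under an alternative were chosen after their values were seen. Symbols and coding sequences came from an mm10 gene annotation and its transcripts, and promoters from RefSeq.

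Genes were tested in R 4.3.3 with edgeR 4.0.16 (quasi-likelihood F test, robust fit, filterByExpr with minimum count 10 and minimum total 15, TMM), with Benjamini-Hochberg adjustment over all 13281 genes. Alternatives were RLE factors, library totals, no filter, 1 CPM in 2 libraries, DESeq2 1.42.0, the likelihood ratio test, a replicate block and leaving out each library. The procedure was checked on simulated counts with the same spread for every gene and planted changes larger than most seen here. That check does not cover the differences between single libraries described above. P-values set the difference between KO and WT against the spread between mice of a group, with 2 mice each. In the fit each gene's spread is drawn toward the trend over all genes tested, so it is not that of its own mice alone. Depth of 30408863 to 34080516 counts a library sets the counting error.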

Additional observations from a re-analysis of the deposited data

How the results depend on the processing

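Of 65 named Zfp genes, 49 kept their direction under every alternative run, and the other 16 changed sign only when a library was left out. No Zfp gene was called under RLE factors, library totals, a filter of 1 CPM in 2 libraries, DESeq2, the likelihood ratio test or the replicate block. DESeq2 called 0.105% of all its genes and the likelihood ratio test 0.760%. For the others the share of all genes called was not taken. Without a filter on low counts 5 were called (0.911% of all genes), namely Zfp871, Zfp219, Zfp169, Zfp398 and Zfp26, and 26 higher and 4 lower had an unadjusted p under 0.05 (4.70% and 3.98% of all genes in that fit). With DESeq2 these numbers were 7 and 1 (1.52% and 1.11%). Leaving out each library in turn gave 0 to 10 called Zfp genes, 8 to 44 higher (2.79% to 9.39% of all genes) and 2 to 4 lower (1.97% to 9.61%) at an unadjusted p under 0.05, and a share higher in KO of 51.6% to 64.3%. The 10 were called without WT replicate 2, and the cause of these differences was not tested. The median log2 change stayed between 0.012 and 0.049. A distance of 500000 bases between neighbours gave 24 clusters with 157 genes.

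When each library was left out in turn, the log2 change lay between -0.06 and 0.09 for Zfp36, -0.06 and 0.20 for Zfp318, -0.30 and 0.17 for Zfp608, -0.25 and 0.01 for Zfp831, -0.01 and 0.03 for Zfp622, -0.01 and 0.09 for Zfp346, -0.06 and 0.03 for Zfp410, and -0.01 and 0.19 for Zfp687. It lay between -0.07 and 0.05 for Zfp131, -0.03 and 0.06 for Zfp746, -0.51 and 0.05 for Zfp516, -0.05 and 0.03 for Zfp646, -0.06 and 0.11 for Zfp157, -0.03 and 0.10 for Zfp426, -0.22 and 0.23 for Zfp808, and -0.03 and 0.44 for Zfp428.

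Replicate numbers did not pair the mice by the labels, and the correlation of replicate differences between KO and WT was 0.0912 over 13281 genes. The fit with the replicate number as a block called 0 Zfp genes. At an unadjusted p under 0.05, 15 were higher and 2 lower, against 4.72% and 3.63% of all genes in that fit. The share of Zfp genes higher in KO was 60.6% and their median log2 change 0.031. Depth limits the weakest Zfp genes, of which Zfp457 had 14 to 45 counts a library. Where 1 library was left out, its lone partner was assumed to vary like the other group.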
